A study of Mus musculus with 8 samples.

Results

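The 6 genes Stat2, Stat3, Stat4, Stat5a, Stat5b and Stat6 encode signal transducers and activators of transcription (STATs), and the peaks linked to them describe their open chromatin in resting splenic natural killer (NK) cells. A peak belonged to a gene when the nearest end of any protein-coding gene (mm10, up to 50 kb away) was an end of that gene. By this rule 263 of the 364277 peaks in the 8 deposited lists were linked to the 6 genes of 21896 protein-coding genes, and they merged into 36 of 55946 regions. ATAC-seq marks open chromatin by inserting sequencing adapters with a transposase. The study profiled NK cells (CD49b+ CD3e-), sorted after DX5 bead enrichment of spleen cells from unchallenged mice, with 4 libraries from mice wild-type for the heat shock factor HSF1 (WT, replicates 4, 5, 6 and 7) and 4 from mice carrying HSF1 with alanine in place of serines 303 and 307 (MUT, S303/7A, replicates 26, 27, 28 and 29), residues whose phosphorylation is known to hold this stress factor in check. Each library came from 1 mouse. The labels give no strain, age or sex, no treatment other than steady state, and no Cre or transgene, so the genotype cannot be told apart from anything else that set these animals or their preparation apart.

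STATs are cytoplasmic factors that cytokine receptors activate through JAK kinases. The phosphorylated proteins pair, enter the nucleus and bind DNA. In NK cells STAT4 is known for the response to interleukin-12, STAT5A and STAT5B for interleukin-15 and interleukin-2 signals that sustain the cells, STAT3 for interleukin-6, interleukin-10 and interleukin-21, STAT2 for type I interferon together with IRF9, and STAT6 for interleukin-4 and interleukin-13.

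The WT lists held 42695 to 46102 peaks and the MUT lists 44333 to 49627, with MUT replicate 27 the longest list. Pairs of libraries shared 78.8% to 85.6% of the regions called in either, so no list was a copy of another. Read depth is unknown for these files, and a peak missing from a list is a peak that was not called. All 10 NK cell marker genes examined, Ncr1, Eomes and the sort marker gene Itga2 among them, had a peak within 1 kb of a gene end in 8 of 8 libraries. Among 6 T cell markers, Cd4 and Cd8a had no linked peak in any library, while Cd3e, Cd3d, Cd3g and Cd5 had a gene-end peak in all 8. Gene-end peaks in all 8 libraries were also found at the myeloid markers Itgax and Cd14, the basophil and mast cell markers Gata2 and Kit and the platelet marker Itga2b, each list holding 6 genes. The myeloid markers Lyz2 and Mpo and the erythroid markers Hbb-bs and Gata1 had no linked peak in any library. Every basophil and mast cell marker had a linked peak in at least 1 library. No marker of the 6 for B cells had a gene-end peak in all 8, though 1 had a linked peak in all 8 and each had one in at least 1 library. Basophils and platelets can also carry CD49b.

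The 6 genes have 9 transcription starts in RefSeq (GRCm38.p6, the build of the files), and the peaks lay on 6 of these in 8 of 8 libraries and on the other 3 in none. Over all protein-coding genes 45.2% of 21262 listed starts lay under a peak in all 8 libraries and 49.4% in none. Stat2, Stat3 and Stat6 have 1 listed start each, and every one of these was covered in 8 of 8 libraries. Stat5b had both of its starts covered. In Stat5a only the downstream one of the pair was covered; of the 2074 genes with 2 listed starts, 23.3% had one covered in 8 libraries and the other in 0. In Stat4 neither start was covered. The 5′ start of Stat4 (chr1:51987148) lay 17031 bp from the nearest peak of any library, and the downstream start (chr1:52008240) only 164 bp from one. A start site without a peak shows no more than that no peak was called on that base.

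The 250 bases before both Stat4 starts are shown to compare the distant and the near one, from RefSeq, 5′ to 3′ on the + strand. Capitals mark GAANNTTC or TTCNNGAA, a pair of heat shock element units in either orientation, and the core of an interferon response element, which is GAAA repeated after a spacer of 2 bases (both strands searched).
Stat4 5′ start, chr1:51986898-51987147: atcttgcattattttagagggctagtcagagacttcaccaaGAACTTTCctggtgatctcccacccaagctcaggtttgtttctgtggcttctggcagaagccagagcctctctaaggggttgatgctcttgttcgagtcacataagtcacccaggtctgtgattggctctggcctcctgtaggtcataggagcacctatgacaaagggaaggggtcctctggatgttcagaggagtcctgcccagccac
Stat4 downstream start, chr1:52007990-52008239: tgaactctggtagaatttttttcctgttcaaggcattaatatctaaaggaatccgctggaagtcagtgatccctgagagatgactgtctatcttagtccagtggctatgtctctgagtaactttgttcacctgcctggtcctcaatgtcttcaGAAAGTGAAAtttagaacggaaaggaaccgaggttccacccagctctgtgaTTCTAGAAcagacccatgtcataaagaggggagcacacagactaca
The 5′ window held 1 CpG and the downstream window 3, against a median of 10 over all listed starts. GAANNTTC was in 6.17% of all such windows, TTCNNGAA in 6.48% and the interferon core in 2.96%. An element of 3 heat shock units (GAA, 2 bases, TTC, 2 bases, GAA) was in 0 of the 9 STAT windows and in 0.386% of all.

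The Stat2 start, covered by a peak whose score stood at the 95.6 to 99.4 percentile of its list, is shown with its interferon element core in capitals (the match is on the opposite strand, at positions -222 to -213 from the start).
Stat2, chr10:128270248-128270497, + strand: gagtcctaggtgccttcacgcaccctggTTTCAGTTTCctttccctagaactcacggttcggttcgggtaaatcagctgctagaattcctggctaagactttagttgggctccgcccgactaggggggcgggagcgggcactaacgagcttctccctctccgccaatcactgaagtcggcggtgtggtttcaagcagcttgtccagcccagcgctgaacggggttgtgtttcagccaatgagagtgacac
The interferon core was in 2 of the 9 STAT windows, those of Stat2 and of the downstream Stat4 start. The STAT recognition motif itself, TTCNNNGAA, was in 0 of 9 against 6.58% of all windows. Its form with a spacer of 4 bases was in Stat2 alone of the 9, and in 5.39% of all. A match describes the letters of the window and no bound factor.

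Stat5a and Stat5b are neighbouring duplicate genes whose covered downstream starts carry a shared stretch, shown because a peak lay over both in 8 of 8 libraries. Of the 36 pairs of STAT windows, these 2 had the highest local alignment score, with 74 identical bases in 94 aligned columns (78.7%). Capitals mark the bases identical between the genes.
Stat5a, chr11:100860381-100860472, + strand: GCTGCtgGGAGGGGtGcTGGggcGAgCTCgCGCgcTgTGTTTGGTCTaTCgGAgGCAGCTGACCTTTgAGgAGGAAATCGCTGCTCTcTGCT
Stat5b, chr11:100822573-100822664, - strand: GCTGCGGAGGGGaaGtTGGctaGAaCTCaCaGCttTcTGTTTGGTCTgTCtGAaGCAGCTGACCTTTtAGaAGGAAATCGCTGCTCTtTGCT
The stretch ended 12 bases before the Stat5a start and 3 before the Stat5b start. It holds the E-box CAGCTG in both genes, a motif of 4 of the 9 STAT windows and of 12.1% of all. The Stat5a window around it had 68.0% G or C and 21 CpGs, the Stat5b window 46.4% and 5. The upstream start of Stat5b, also open, had 82.0% and 40.

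Linked peak length, the summed width in bp of a library's peaks at a gene, ordered the genes as Stat4, Stat5b, Stat6, Stat3, Stat5a and Stat2 in both genotypes. Values of WT are given for replicates 4, 5, 6 and 7 and of MUT for 26, 27, 28 and 29, in that order and not scaled. A longer sum can mean more cells with an open site or more open sites per cell, which bulk libraries cannot tell apart. For Stat4 the WT libraries gave 5130, 5301, 4912 and 5043 bp and the MUT libraries 5308, 5259, 5148 and 4717 bp. Both groups spanned much the same range, with MUT replicate 29 lowest. For Stat5b the WT libraries gave 3792, 3879, 3824 and 3729 bp and the MUT libraries 3705, 4441, 4113 and 3857 bp. MUT replicate 27 was highest and MUT replicate 26 lowest of the 8, so the groups overlapped. For Stat6 the WT libraries gave 2970, 3070, 2564 and 2694 bp and the MUT libraries 2757, 2943, 2916 and 2886 bp. Its MUT libraries lay within the WT range. For Stat3 the WT libraries gave 2269, 2312, 2515 and 2355 bp and the MUT libraries 2341, 2864, 2796 and 2562 bp. Of its MUT libraries 3 lay above every WT library and replicate 26 lay among them. For Stat5a the WT libraries gave 1007, 1028, 960 and 936 bp and the MUT libraries 944, 1204, 976 and 990 bp, where MUT replicate 27 lay above the WT range and the other 3 within it. For Stat2 the WT libraries gave 695, 694, 867 and 707 bp and the MUT libraries 833, 763, 694 and 695 bp, from a single peak in every library.

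**Figure D1:**
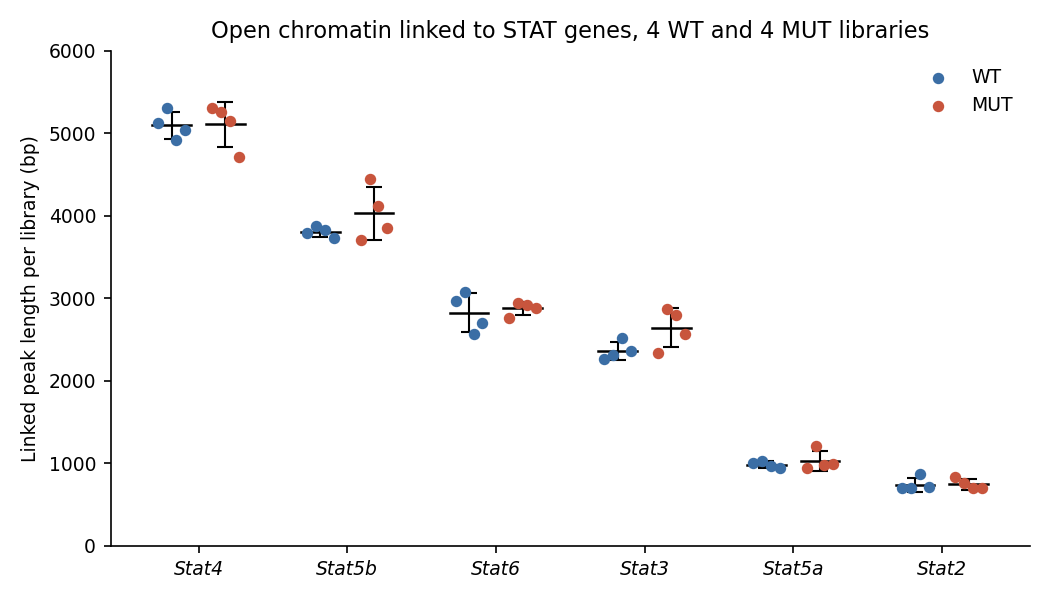
Linked peak length (bp, y axis from 0) of the 6 STAT genes, ordered by the WT mean; each point is 1 library, the bar the mean and the whiskers the SD (n = 4 WT and 4 MUT). WT and MUT overlap at every gene, and MUT replicate 27 is the highest point of Stat5b, Stat3 and Stat5a. Lengths are not scaled, and MUT replicate 27 had the longest list of peaks.

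In this order most neighbours stood apart by more than their spread. Stat6 and Stat3 were the exception in MUT, where 2757 to 2943 bp met 2341 to 2864 bp. In WT the lowest Stat6 library (replicate 6, 2564 bp) was just above the highest Stat3 library (2515 bp). An upstream peak linked to Stat6 in 7 of 8 libraries was linked to Lrp1 in WT replicate 6. Among all 14256 tested genes the mean length of Stat4 stood at the 97.8 percentile, Stat5b at 95.5, Stat6 at 90.6, Stat3 at 87.9, Stat5a at 49.3 and Stat2 at 32.0. Per kb of annotated gene the order differed. Stat6, the shortest gene, had 157 ± 13.1 bp per kb in WT (SD, n = 4), followed by Stat5b with 48.6 ± 0.800, Stat3 with 44.8 ± 2.03, Stat4 with 42.4 ± 1.36, Stat5a with 38.1 ± 1.63 and Stat2 with 33.1 ± 3.77. The length of Stat4 depended on the linking distance, since its regions lie deep inside a long gene: with links up to 10 kb the WT means were 251 bp for Stat4, 988 bp for Stat5b, 2012 bp for Stat3 and 2513 bp for Stat6. With the upper 50% of each list, Stat5b led with 2906 bp, followed by Stat6 with 2132, Stat4 with 2006 and Stat3 with 1528 bp.

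Most STAT regions were called in every library. Of the 36 regions 33 had a peak in at least 2 libraries, and 30 of these (90.9%) in 8 of 8, against 68.9% of all 50044 such regions. Only 3 of the 33 (9.09%) lay within 1 kb of a protein-coding gene end, against 24.6% of all, and 30 lay inside the STAT gene to which they were linked. Strength was read as the percentile of the peak score within its own list, since the score has no named unit. The 30 regions had a median percentile of 51.5 and a median width of 374 bp, compared with 59.8 and 505 bp for all 34461 regions called in 8 of 8. Stronger regions were wider (across regions, which share libraries: Spearman's rho 0.735 and Pearson's r 0.395 over the 30, 0.560 and 0.435 over all). The 9 STAT regions above the 75 percentile varied least among libraries, with a median SD of 2.27 percentile points over the 8, and the 8 regions between 25 and 50 most, with 9.35. Over all regions called in 8 of 8 the same classes were lowest and highest, with 2.63 and 8.32.

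**Figure D2:**
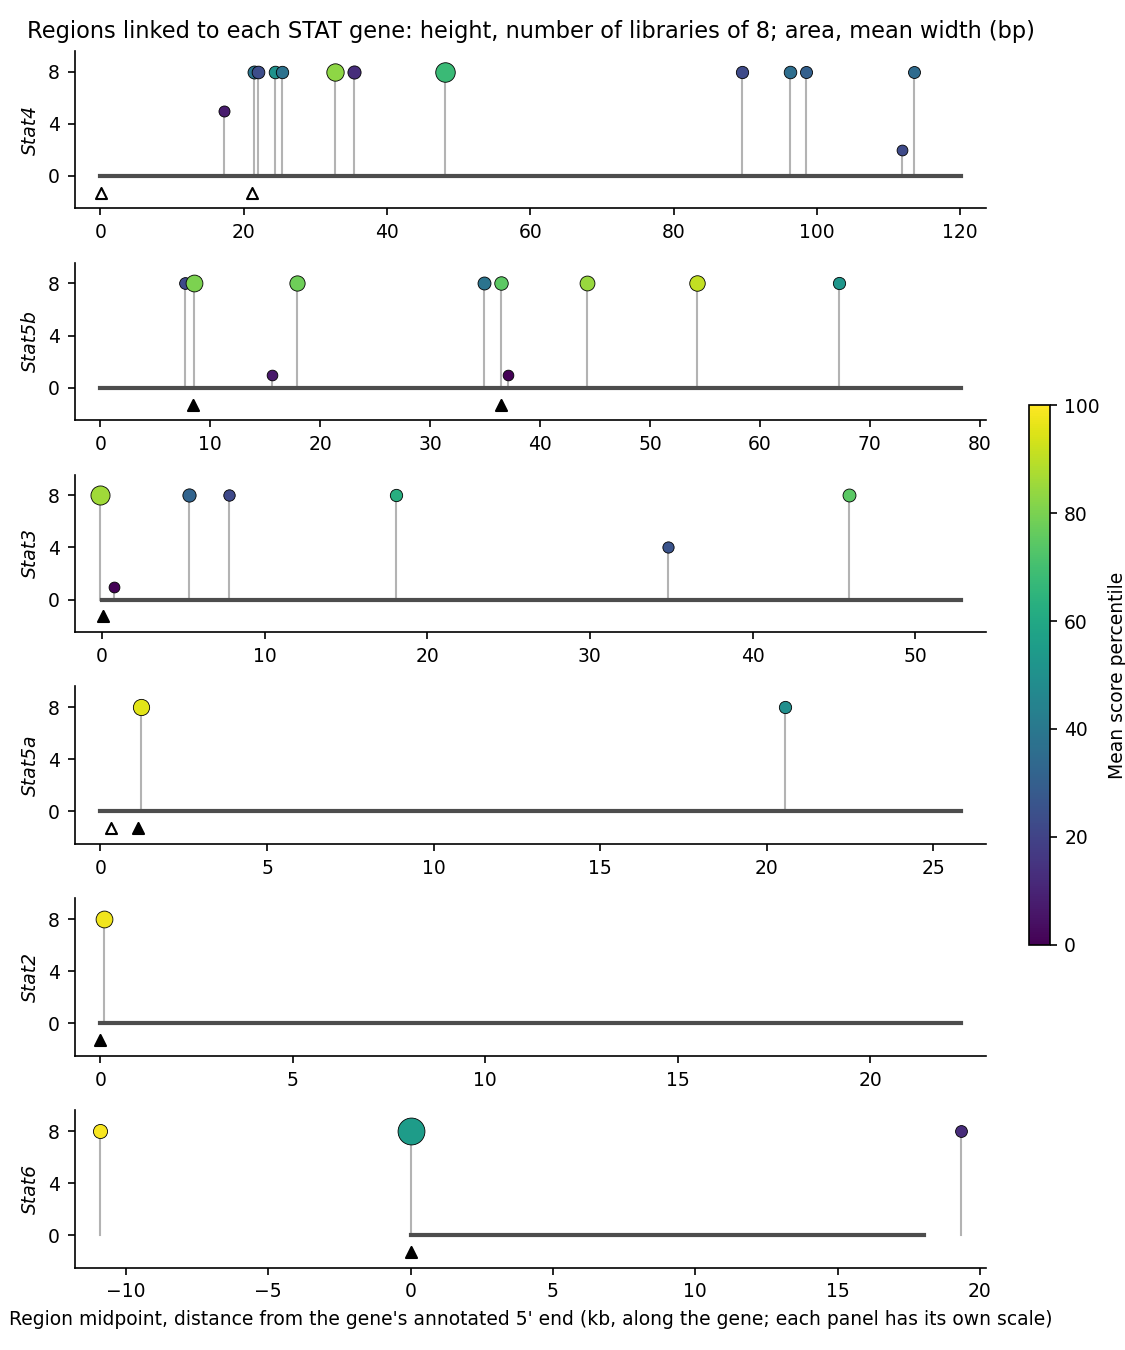
Regions linked to each STAT gene along the gene (x axis, kb from the annotated 5′ end; the scale differs between panels); the y axis is the number of libraries of 8 with a peak, point area grows with mean width in bp and colour gives the mean score percentile. The dark line is the annotated gene and triangles are RefSeq starts, filled where a peak lay on the start in 8 of 8 libraries; the open triangles are both Stat4 starts and the upstream Stat5a start.

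Stat4, the interleukin-12 factor (chromosome 1, 51987106 to 52107189), had 13 linked regions, 11 of them in 8 of 8 libraries and all 13 inside the gene. None lay in the first 17 kb, and the longest stretch with no peak in any library was 35399 bp (52041018 to 52076417). Its strongest region, Stat4 region 6 counted from the 5′ end (52019476 to 52020311), lay 32787 bp into the gene at percentiles of 78.8 to 84.7 and with widths of 796 to 823 bp, nearly the same in all 8 libraries. The widest, region 8 (52034666 to 52035783), covered 1017 to 1114 bp and was called as 1 peak in 4 libraries and as a pair of peaks in the other 4 (WT replicate 4 and MUT replicates 26, 27 and 29). Region 2 (52008404 to 52008807), the one beside the downstream start, had percentiles of 32.4 to 43.0. Region 7 (52022253 to 52022664) was called in all 8 libraries although its percentiles were only 5.52 to 24.9. Region 8 was the last one inside the 50 kb rule, 48118 bp from the 5′ end. The next region in the gene (52040392 to 52041018), 53599 bp from that end, was beyond it; it was called in 8 of 8 libraries with a mean percentile of 49.2.

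Stat5b, Stat5a and Stat3 lie side by side on chromosome 11 (100780731 to 100939594, a span of 158864 bp) with 19 linked regions, 15 of them in 8 of 8 libraries. Their summed length was 7068, 7219, 7299 and 7020 bp in WT and 6990, 8509, 7885 and 7409 bp in MUT. The MUT libraries spread over a wider range than the WT libraries and held both the lowest and the highest value. These sums were not scaled, and the highest came from MUT replicate 27, the longest list (49627 peaks). The part of list length in this spread was not tested. Stat5b (100780731 to 100859004, - strand) had the most strong regions, 4 of its 8 regions in 8 of 8 libraries above the 75 percentile against 1 for each other STAT gene. The highest, Stat5b region 9 (100804365 to 100805025), lay 54309 bp into the gene at percentiles of 87.2 to 94.0. The region on the upstream start, region 2 (100850106 to 100850929), had percentiles of 73.2 to 85.8 and widths of 700 to 783 bp. The region on the downstream start, region 6 (100822349 to 100822824), had percentiles of 69.6 to 79.1 and widths of 404 to 460 bp.

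Stat5a (100859351 to 100885169, + strand), although a duplicate of Stat5b, had 2 regions. Its start region (100860138 to 100860976) stood at percentiles of 91.6 to 97.4, above the start regions of Stat5b in each library. The other, near the 3′ end (100879725 to 100880098), ranged from 31.1 to 67.6. Stat3 (100886806 to 100939594, - strand) had 7 regions, 5 of them in 8 of 8 libraries. Its start region (100939152 to 100940205) stood at 81.5 to 89.7, and an internal one (region 7, 100893441 to 100893837) at 61.5 to 81.8.

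Stat2, the interferon factor (chromosome 10, 128270498 to 128292853), had only its start region (128270156 to 128271041), at 95.6 to 99.4. This region also overlaps the annotated span of the lipoprotein gene Apof, which covers the Stat2 start, so its peaks cannot be given to 1 of these genes by position alone. Over the remaining 21812 bp of Stat2 no library had a peak.

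Stat6, the interleukin-4 factor (chromosome 10, 127642955 to 127660987), had the broadest and the strongest of the STAT regions, which were not the same. The broad one spanned the start (127641793 to 127644184) with 1985 to 2385 bp of peaks per library. It was called as a single peak in WT replicate 5 and MUT replicate 27 and as a pair in the other 6, where the peak on the start itself stood at 64.8 to 71.2. The strong one lay 10891 bp upstream between Lrp1 and Stat6 (127631755 to 127632373) at percentiles of 97.4 to 99.9. It was 397 to 580 bp wide and linked to Stat6 in 7 of 8 libraries; in WT replicate 6 its midpoint fell nearer to Lrp1, which lowered the Stat6 length there. The region farthest downstream (127662112 to 127662442) lies past the 3′ end in the overlapping neighbour Nab2 and was weak, at 5.69 to 22.6. A region inside Stat6 (127654802 to 127655694) at 83.3 to 89.5 was nearest to Nab2 and so fell outside the rule.

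The genotype comparison asked whether these regions differ between NK cells with wild-type and alanine-substituted HSF1. By limma over all 14256 genes, on log2(scaled bp + 200), 0 of the 6 STAT genes passed an adjusted p of 0.05, where 0.673% of all genes did (96 genes; 1597 had an unadjusted p under 0.05, and 0 of the 6 STAT genes). All 6 passed the filter for low values (linked peaks called in 2 libraries or more). The log2 difference, MUT minus WT, was 0.11 for Stat3 (SE 0.0570, limma adjusted p = 0.542), where linked length was 2363 ± 107 bp for WT against 2641 ± 238 bp for MUT (SD, n = 4). For Stat5b it was 0.038 (SE 0.0360, limma adjusted p = 0.756) and for Stat5a 0.017 (SE 0.0555, limma adjusted p = 0.932). It was -0.036 for Stat4 (SE 0.0392, limma adjusted p = 0.790), -0.021 for Stat2 (SE 0.0846, limma adjusted p = 0.947) and -0.0097 for Stat6 (SE 0.0593, limma adjusted p = 0.970). The median of the 6 was 0.0039, compared with -0.019 over all genes. With the upper 50% of each list the differences were 0.17 for Stat5a (limma adjusted p = 0.842), 0.16 for Stat3 (limma adjusted p = 0.694) and 0.15 for Stat5b (limma adjusted p = 0.502). Under the same setting Stat4 was at 0.045, Stat2 at -0.0058 and Stat6 at -0.047. With all peaks used, groups overlapped in 6 of 6, whereas 5.75% of all genes had groups that did not.

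Of the 33 STAT regions with a peak in 2 libraries or more, 0 were called in all 4 libraries of one genotype and in 0 of the other, the split with the smallest Fisher's exact p that 4 against 4 libraries allow (0.0286, unadjusted), which 0.761% of all 50044 such regions showed. The nearest to such a split were Stat3 region 6 (100904606 to 100904922), called in 1 WT and 3 MUT libraries (Fisher's exact p = 0.486), and Stat4 region 12 (52098935 to 52099163), in 0 WT and 2 MUT libraries (Fisher's exact p = 0.429). Both were weak, at percentiles of 15.5 to 47.2 and 16.0 to 28.8.

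For score percentile, 0 of the 30 STAT regions passed limma over the 34461 regions called in 8 of 8 libraries (0.525% of all passed), and 4 of 30 had an unadjusted p under 0.05 against 18.7% of all. The groups did not overlap in 2 of 30, both higher in MUT, against 12.2% of all regions and 7.43% that were higher in MUT. These were the regions nearest the 3′ ends of Stat4 and Stat5b. Stat5b region 10 (100791639 to 100792017) stood at percentiles of 37.2, 38.5, 54.6 and 42.8 in WT and 61.8, 67.6, 55.9 and 61.6 in MUT. Every MUT library lay above every WT library, WT replicate 6 being the closest. The difference was 18.5 percentile points (SE 4.25, limma adjusted p = 0.101). Without WT replicate 6 it was 22.2 (limma adjusted p = 0.0367), which was the only call at a STAT region with 1 library left out. Leaving out this library also gave 357 calls over all regions, against 181 with all 8 libraries. Stat4 region 13 (52100489 to 52100866) stood at 16.1, 17.2, 34.9 and 28.4 in WT and 43.0, 60.3, 39.2 and 36.8 in MUT. Here too all MUT libraries were higher, by 20.7 points on average (SE 6.29, limma adjusted p = 0.155).

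**Figure D3:**
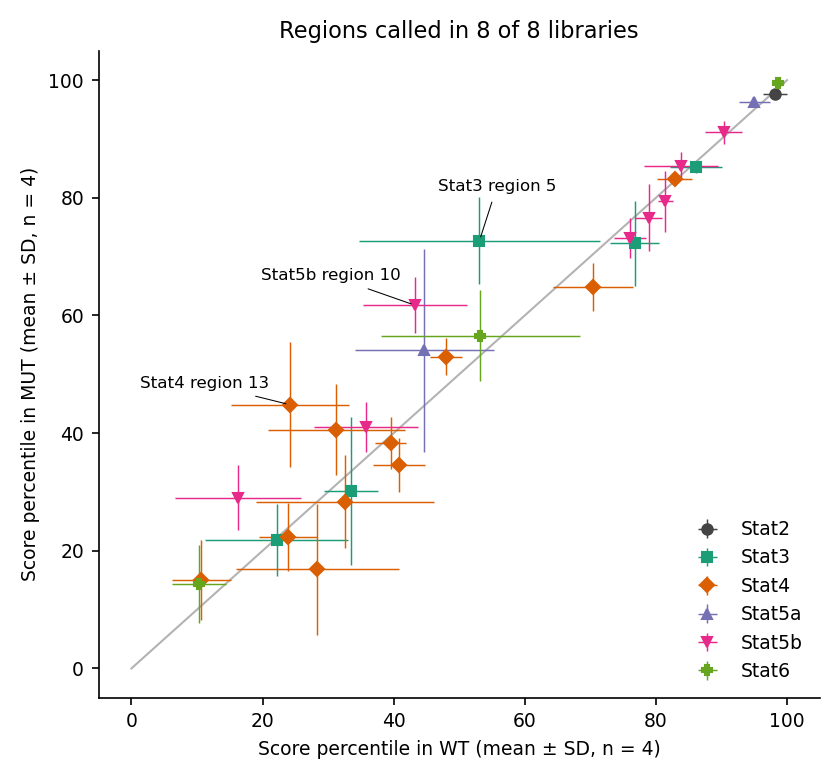
Mean score percentile of the 30 STAT regions called in 8 of 8 libraries, WT on the x axis and MUT on the y axis; points are means, whiskers the SD (n = 4 each) and the grey line marks equal values. Regions above the 75 percentile lie close to the line, and Stat4 region 13, Stat5b region 10 and Stat3 region 5 lie farthest above it.

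For peak width, 0 of 30 STAT regions passed (0.110% of all passed) and the groups did not overlap in 2, both wider in MUT, against 5.41% of all and 3.76% that were wider in MUT. Stat4 region 13 was 218, 216, 305 and 266 bp wide in WT and 365, 343, 321 and 310 bp in MUT. It was wider in every MUT library, by 0.43 on the log2 scale (SE 0.119, limma adjusted p = 0.345). The start region of Stat3 was 975, 1007, 963 and 975 bp wide in WT and 1033, 1049, 1035 and 1024 bp in MUT, a log2 difference of 0.079 (SE 0.0287, limma adjusted p = 0.465). Its percentiles overlapped between the genotypes, at 86.2 ± 3.98 in WT and 85.2 ± 0.921 in MUT (SD, n = 4). The start regions of Stat2, Stat5a and Stat5b and the strong upstream region of Stat6 had mean differences, MUT minus WT, from -2.86 (the downstream Stat5b start) to 1.24 percentile points (Stat5a). At the broad Stat6 start region the difference was 3.39 points (SE 7.65), where percentiles are averages over peaks split differently among libraries.

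**Figure D4:**
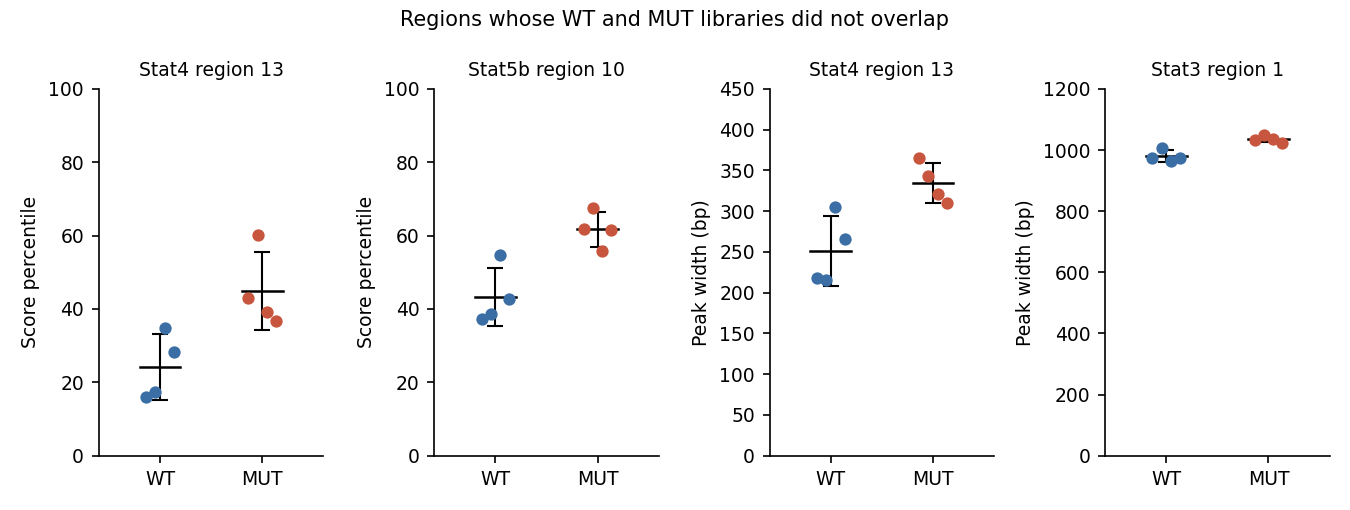
Score percentile (2 panels on the left) and peak width in bp (2 panels on the right), both axes from 0, for the STAT regions whose 4 WT and 4 MUT libraries did not overlap; points are libraries, bars means and whiskers the SD. MUT lies higher in each panel, and of the percentile panels the gap is narrower for Stat5b (54.6 in WT replicate 6, 55.9 in MUT replicate 28).

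The other regions with an unadjusted p under 0.05 for percentile were Stat5b region 1 and Stat4 region 4, both higher in MUT on average, with groups that overlapped. Stat5b region 1 (100851201 to 100851512) had 7.40, 9.12, 21.2 and 27.4 in WT and 31.6, 21.5, 34.3 and 28.8 in MUT, a difference of 12.8 percentile points (SE 5.04, limma adjusted p = 0.235). Stat4 region 4 (52011251 to 52011627) had 44.5, 48.3, 49.4 and 49.9 in WT and 52.4, 48.9, 54.4 and 56.3 in MUT, a difference of 4.98 (SE 2.07, limma adjusted p = 0.254). In both, a single MUT library lay within the WT range. Some regions varied widely within WT. Stat3 region 5 (100921325 to 100921706) had 43.9, 33.5, 75.8 and 59.0 in WT and 65.8, 71.9, 69.9 and 83.1 in MUT, where WT replicate 6 lay among the MUT libraries (limma adjusted p = 0.288). Stat4 region 11 (52085360 to 52085923) was 492 and 535 bp wide in WT replicates 4 and 5 and 202 to 275 bp wide in the other 6 libraries. Over the 30 regions, 16 had a higher mean percentile in MUT (53.3%, all regions 53.7%) and 20 were wider (66.7%, all regions 55.6%). Summed peak length at the 6 T cell markers was 3494 to 3895 bp in WT and 3909 to 5240 bp in MUT, with Cd4 and Cd8a at 0 in all libraries. No T cell marker passed for linked length. The summed lengths of the NK, B cell, myeloid, basophil and erythroid lists overlapped between genotypes. Of the 10 NK markers 1 passed for linked length, where 0.673% of all 14256 genes did. It was the receptor gene Klrb1c, with means of 6347 bp for WT and 5360 bp for MUT (log2 -0.27, SE 0.0407, limma adjusted p = 0.0315). The part of other cells in the differences above was not tested.

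The tested neighbours of Stat2, Stat3, Stat5b and Stat6 gave no call either, by the log2 difference in linked length, MUT minus WT. Beside Stat6, the receptor gene Lrp1 had -0.043 (limma adjusted p = 0.728) and the transcriptional cofactor gene Nab2 -0.013 (limma adjusted p = 0.943). Il23a next to Stat2 was not among the genes tested, Apof had 0.58 (limma adjusted p = 0.630), Cavin1 beside Stat3 0.10 (limma adjusted p = 0.917) and Ghdc beside Stat5b -0.050 (limma adjusted p = 0.893). Apof had at most 1 linked peak per library, with 0, 0, 238 and 0 bp in WT and 230, 207, 0 and 301 bp in MUT. The genes on other chromosomes whose linked length varied most like that of a STAT gene, by Pearson's r of log2 length over 8 libraries, were Rxra for Stat5b (0.984), Zfp94 for Stat6 (0.975), Cnpy4 for Stat3 (0.964), Scap for Stat2 (0.957), Sh2d1b1 for Stat5a (0.955) and Zscan30 for Stat4 (0.953). With 13090 to 13561 genes compared for each, 7 to 23 had an r above 0.9, so this names the closest profile and nothing more.

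Upstream and downstream of the STATs, 0 of 56 tested pathway genes passed in either direction, where 0.673% of all 14256 genes did. The 4 JAK kinase genes had a median log2 difference of 0.061, all 4 above 0. The linked length of Jak1 was 6297 ± 528 bp for WT against 8226 ± 553 bp for MUT (SD, n = 4; log2 0.34, limma adjusted p = 0.0661), and Jak3 had 0.081 (limma adjusted p = 0.621). The 18 receptor genes had a median of 0.0086, with 9 above 0. Il2ra, the interleukin-2 receptor alpha chain, had 0.26 (limma adjusted p = 0.204) and the type I interferon receptor gene Ifnar2 -0.15 (limma adjusted p = 0.278). The 17 inhibitors of STAT signalling had a median of 0.031, with 13 above 0, where 42.1% of all genes were. Pias1, which inhibits STATs in the nucleus, had 0.18 (limma adjusted p = 0.196), and Cish, a STAT5-induced feedback inhibitor, -0.10 (limma adjusted p = 0.319). The 17 tested partner and target genes had a median of -0.016, with the survival gene Bcl2 at 0.15 (limma adjusted p = 0.283) and the kinase gene Pim1 at 0.20 (limma adjusted p = 0.308). Mx1 was not matched in the gene table and was not tested.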

How the data were processed

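Peak lists of 8 ATAC-seq libraries were used, 4 WT and 4 MUT. The authors deposited 1 list per library, with an unnamed positive score per peak. The build is mm10, and DiffBind (3.0.12), DESeq2, Bowtie2 (2.3.4.1) and Trimmomatic are named, per the submitters' processing notes, which assign them no step. The peak caller is not given in the sources used here. Depth is unknown, as no counts come with the peaks.

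Peaks were linked by midpoint to the nearest protein-coding gene end up to 50 kb away (RefSeq, GRCm38.p6). Overlapping peaks (1 bp or more) were merged into regions, and scores became percentiles within each list, averaged over several peaks of a region. Linked length was scaled to the median library total and tested with limma 3.58.1 (trend) on log2(bp + 200), which understates change at genes with little length. Region percentiles and log2 widths were tested with limma without scaling or trend, and presence with Fisher's exact test, all two-sided with Benjamini-Hochberg adjustment at 0.05. The smallest Fisher's exact p possible (0.0286) was reached by 381 of 50044 regions, so no region could pass that test after adjustment. The limma steps were tested on simulated data with independent noise for each value, which held no effect shared within a library. The 9 start windows were searched for 13 motifs and aligned in pairs (Biopython 1.88). Alternatives changed the pseudocount, scaling, link distance, filters, part of each list used, linked peaks by their merged region, or left out 1 library.

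Named were the 6 genes, their regions and nearest neighbours (those of Stat4 are not reported here), the 1 gene most alike on another chromosome, and 2 genes of smallest p per pathway list; single regions and markers were singled out after their values were seen. The members and lists were chosen with earlier results of these data known.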

Additional observations from a re-analysis of the deposited data

Results flagged for a closer look

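Within groups of 4 libraries, 9 values of 132 groups examined stood apart from the other 3 by more than Dixon's 95% critical value; chance alone flags about 1 group in 20. In WT replicate 6 the single Stat2 peak was 867 bp wide, which is also the whole Stat2 linked length there, while the other WT libraries had 694 to 707 bp. The same library had 648 bp at Stat5b region 4 (100840713 to 100841448), where the others all had 520 bp. In WT replicate 5 the width was 335 bp at Stat4 region 3 (others 367 to 373 bp) and 460 bp at Stat5b region 6 (others 404 to 412 bp), and the score percentile was 78.8 at Stat4 region 6 (others 83.7 to 84.7). MUT replicate 26 was low in the percentile of Stat3 region 7, at 61.5 (others 75.5 to 76.1), and in the width of the Stat5b start region 2, at 715 bp (others 775 to 783 bp). MUT replicate 29 was low at Stat3 region 4 (100931627 to 100931939), with a percentile of 12.6 against 23.9 to 25.8.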

How the results depend on the processing

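No paired analysis was possible because the WT replicates (4 to 7) and the MUT replicates (26 to 29) share no number. None of the 6 STAT genes passed for linked length in any of the 15 alternatives, none of the tested STAT regions for peak width and none was called in every library of one genotype and in none of the other. For score percentile the count of STAT regions past the threshold ranged from 0 to 1 with a library left out. The 1 was Stat5b region 10 without WT replicate 6, the omission that also gave the most calls over all regions (357). Stat3 and Stat5b kept a positive difference in linked length in all 15 alternatives. The small differences of the other 4 genes changed sign, none past the threshold. Without scaling, which moved the median of all genes from -0.019 to 0.013, Stat2 was at 0.0099, Stat4 at 0.0022 and Stat6 at 0.027. Stat4 was at 0.46 with links up to 10 kb (limma adjusted p = 0.396), where only its regions 12 and 13 were counted. With the upper 50% of each list Stat4 was at 0.045, and with equal numbers of peaks Stat6 was at 0.042. With every peak given to the gene of its merged region Stat6 was at -0.074 (limma adjusted p = 0.627). Its means were then 2960 bp for WT and 2876 bp for MUT. With 1 library left out, the log2 difference ranged from -0.073 to 0.042 for Stat2, from -0.016 to 0.045 for Stat5a and from -0.051 to 0.020 for Stat6. Among all genes, 96 were called for linked length, and 22 to 79 with 1 library left out and 41 at 10 kb. Among all regions, 181 were called for percentile and 38 for width, and with 1 library left out 32 to 357 and 14 to 57; with the upper 50% of each list width called 18. The cause was not tested. Since depth is unknown, a weak region that is missing from a list may have been read too thinly to be called.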
